A study of Mus musculus with 9 samples.

Results

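The S100 proteins and alarmins of mouse skin were followed through 10 genes, *S100a3*, *S100a4*, *S100a6*, *S100a7a*, *S100a8*, *S100a9*, *S100a10*, *S100a11*, *S100a14* and *S100a16*, which were picked by name from a table of 17943 genes in bulk RNA-Seq of skin. The 10 genes and all lists below were chosen with earlier results of these data known. Counts and p-values for them are therefore not an unbiased test of the set. All 10 were found, and all 10 passed the filter on low counts, which kept 16426 genes with at least 10 counts summed over the 9 mice. The control group was 5 *Supt6* fl/fl mice given corn oil, which the sample labels call wild type. The *Supt6*-KO group was 4 K14-CreERT; *Supt6* fl/fl mice given tamoxifen, so the groups differed in the Cre transgene and in tamoxifen as well as in *Supt6*, and these cannot be told apart. Both groups carried the floxed alleles, the injections fell in the first resting phase (telogen) of the hair cycle, and the skin was taken on day 10 after the last of them. The K14 promoter drives Cre in basal keratinocytes, whereas whole skin was sequenced. No source used here gives the age, sex or strain of each mouse, or says whether littermates were used, so the p-values measure the spread between these mice.

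S100 proteins are small calcium sensors of vertebrates. Each has a pair of EF-hand loops, most work as dimers, and calcium opens a surface that binds annexins, enzymes and cytoskeletal proteins. Several are released from stressed or dying cells and act as alarmins, signals of damage read by Toll-like receptor 4 and by RAGE. In skin, S100A8 and S100A9 are made by neutrophils and by keratinocytes of inflamed epidermis, most of the mouse genes lie in the epidermal differentiation region of chromosome 3, and S100A3 belongs to the hair cuticle.

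The promoters of *S100a8* and *S100a9* are shown because these neighbouring genes had the largest differences of the 10 and rose together in every *Supt6*-KO mouse. The sequences are from RefSeq on GRCm38.p6, whose promoter table held 12 windows for 8 of the 10 genes, and not *S100a10* or *S100a14*. Each window is the 250 bases before a transcript start, read 5′ to 3′ on the gene's strand, and positions are counted back from that start. Capitals mark a motif match. *S100a9* is shown whole (minus strand, chr3:90695722-90695971), and its capitals are a match to the C/EBP motif TTGCNNAA at -236 to -229. *S100a8* is shown from -250 to -94 (plus strand, chr3:90668821-90668977), where GENCODE's first exon begins upstream of the RefSeq start, and as 30 bases around its TATA box, TATAAA, at -30 to -25 (chr3:90669029-90669058). *S100a4*, which also holds TATAAA, is given for comparison (plus strand, chr3:90603727-90603756).
S100a9 promoter: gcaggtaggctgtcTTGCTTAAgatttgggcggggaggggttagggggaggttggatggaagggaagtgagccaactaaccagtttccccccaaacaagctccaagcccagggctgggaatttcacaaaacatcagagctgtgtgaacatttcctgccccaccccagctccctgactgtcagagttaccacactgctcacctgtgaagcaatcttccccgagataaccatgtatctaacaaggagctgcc
S100a8 promoter, distal part: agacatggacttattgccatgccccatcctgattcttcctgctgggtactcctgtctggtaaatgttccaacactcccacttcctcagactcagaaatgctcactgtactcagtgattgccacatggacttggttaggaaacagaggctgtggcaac
S100a8 TATA box: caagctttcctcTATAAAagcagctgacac
S100a4 TATA box: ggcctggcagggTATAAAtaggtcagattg

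*S100a11*, which lies far from this pair on the same chromosome, had 2 matches to the AP-1 motif TGANTCA within its window (plus strand, chr3:93520349-93520378 and chr3:93520447-93520476).
S100a11 distal AP-1 match: cagagacctgtTGAGTCAcagggactacaa
S100a11 proximal AP-1 match: cgggcacagccTGAGTCAggctgaggggcg

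Matches were sought on both strands. Over the 12 windows, TATAAA was found in 3, TGANTCA in 2, TTGCNNAA in 1 and the form of the NF-kB motif searched here (GGG, any 3 bases, TTCC) in 0. Other forms of the NF-kB motif were not sought. In all 32851 promoter windows of the same length, 12.4% held TATAAA, 6.75% held TGANTCA, 9.56% held TTGCNNAA and 4.65% held the NF-kB letters. These are matches of letters only, and no binding was measured here.

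The authors deposited estimated counts per gene, made with RSEM. They summed to between 29627341 and 30491197 in the controls and to between 30597189 and 30967107 in the *Supt6*-KO mice. Levels are given below as CPM, counts scaled to a common library size after edgeR's TMM adjustment, and groups as mean ± SD. Log2 fold changes compare *Supt6*-KO with control skin by edgeR's quasi-likelihood test, with p-values adjusted by the Benjamini-Hochberg method over all 16426 genes and called below 0.05. Counts of *Supt6* itself were 2786, 2068, 2297, 3370 and 3798 for controls 1 to 5 and 684, 503, 478 and 791 for *Supt6*-KO mice 1 to 4. Every *Supt6*-KO mouse lay below every control (log2 fold change -1.57, SE 0.18, adjusted p = 1.3e-05 by edgeR).

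The libraries had 2 features that bear on every value below. The TMM factors were 1.198 to 1.315 in controls and 0.6738 to 0.9098 in *Supt6*-KO mice, and library totals in place of them shifted the median over the whole table from -0.07 to -0.76 on the log2 scale. Short genes were also higher in *Supt6*-KO skin than long ones, the log2 fold change falling along transcript length with a slope of -1.77 for each 10-fold, and S100 genes are short. Judged by the lengths behind the deposited TPM values, 10.8% of the other genes were no longer than the longest of the 10 S100 genes, and 70.4% of those 1483 genes were called higher and 13.7% lower, with a median log2 fold change of 1.29. Values after a correction for length, which brought the slope to 0.09, and values with library totals are therefore given beside the TMM values of the 10 S100 genes, and values of other genes are on the TMM scale unless another scaling is named. *Supt6* itself was at -0.80 on the log2 scale after the length correction, -0.72 with the lengths behind the TPM and -2.26 with library totals, each called lower. *Supt6*-KO mouse 4 stood apart from the other *Supt6*-KO mice, with the highest TMM factor, 13870 CPM of summed basal keratinocyte markers against 5411 to 8058, and 19940 CPM of summed suprabasal markers against 36700 to 40330.

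By the TMM values, 9 of the 10 S100 genes were called higher in *Supt6*-KO skin, where 34.1% of all genes tested were, and 1, *S100a3*, was called lower, where 36.8% were. The same 9 were above every control in every *Supt6*-KO mouse, as were 28.9% of all genes, and 0 of the 10 were below every control, as were 31.8%. By at least 2-fold, 8 of the 10 were called higher, where 20.9% of all genes were, and 1 lower, where 24.9% were. Their ranking ran from *S100a8* and *S100a9*, more than 200-fold higher, through *S100a7a*, *S100a16*, *S100a14* and *S100a6* to *S100a11*, *S100a4* and *S100a10*, which were within 3-fold. The median log2 fold change of the 10 was 2.02, against -0.07 for all genes. Among the 1483 other genes no longer than the longest of them, the median was 1.29, with 70.4% called higher and 13.7% lower. After the length correction 6 were higher, where 36.1% of all genes were, and 2 lower, where 31.9% were, with a median of 1.19. With library totals 7 were higher, where 16.9% of all genes were, and 1 lower, where 54.6% were, with a median of 1.32. *S100a8*, *S100a9*, *S100a7a*, *S100a16*, *S100a14* and *S100a6* were higher under all 3 scalings, whereas the calls of *S100a4*, *S100a10* and *S100a11* rested on the scaling. Leaving out each mouse in turn kept the 9 higher calls and the 1 lower call.

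**Figure D1:**
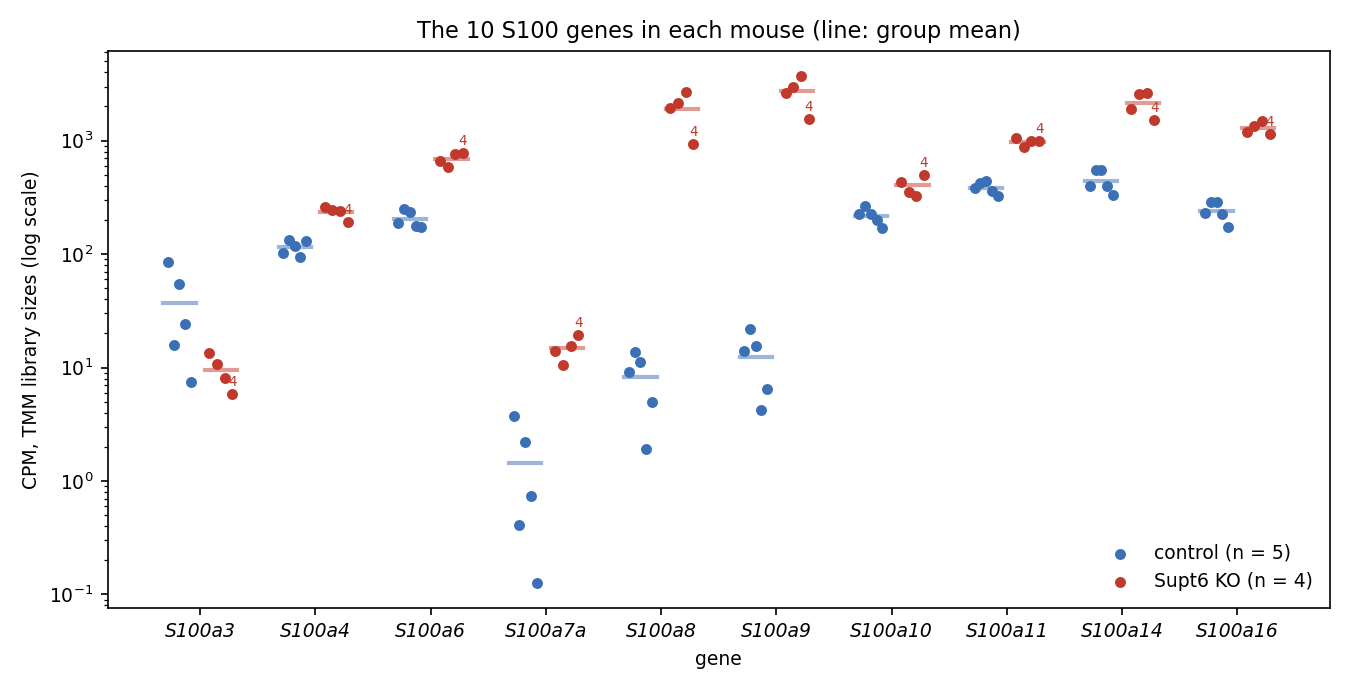
CPM of the 10 S100 genes on a log axis, with a point for each control mouse (blue, n = 5) and each Supt6-KO mouse (red, n = 4, with mouse 4 marked) and a line at each group mean. 9 genes lie wholly above the controls on this TMM scale and S100a3 overlaps, while after the length correction S100a4 is called lower (-0.43) and S100a10 (-0.23) and S100a11 (-0.02) are not called.

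The alarmin pair *S100a8* and *S100a9*, whose proteins form the heterodimer calprotectin, came first. *S100a8* (chromosome 3, 90669071 to 90670034) was counted 344, 504, 402, 71 and 195 times in controls 1 to 5 and 46058, 44968, 58226 and 25927 times in *Supt6*-KO mice 1 to 4. The lowest *Supt6*-KO mouse, number 4, was still far above the highest control. *S100a8* rose from 8.20 ± 4.76 CPM (n = 5) to 1919 ± 727 CPM (n = 4), a 234-fold difference (log2 fold change 7.87, SE 0.60, adjusted p = 1.1e-06 by edgeR). *S100a9* (chromosome 3, 90692630 to 90695721) was counted 519, 794, 556, 157 and 253 times in the controls and 62467, 62107, 81083 and 43444 times in the knockouts. Control 4 and *Supt6*-KO mouse 4 were again the lowest of their groups. *S100a9* rose from 12.3 ± 7.08 CPM to 2715 ± 895 CPM, a 220-fold difference (log2 fold change 7.78, SE 0.54, adjusted p = 6.6e-07 by edgeR). After the length correction the log2 fold changes were 6.42 for *S100a8* and 6.38 for *S100a9*, and with library totals 7.14 and 7.06. With the lengths behind the TPM they were 5.85 and 6.17, so the order of the 2 genes turned. Without *Supt6*-KO mouse 4 the TMM values were 8.10 and 7.97.

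The proportion of the 2 genes was compared within each mouse on counts not corrected for length, where a scaling common to all genes of a mouse cancels. Counts of *S100a8* per count of *S100a9* were 0.663, 0.635, 0.723, 0.452 and 0.771 in the controls and 0.737, 0.724, 0.718 and 0.597 in the *Supt6*-KO mice. The groups overlapped, with a log2 ratio of -0.65 ± 0.30 (n = 5) against -0.53 ± 0.14 (n = 4) and a two-sided exact permutation p of 0.587, in a design where the smallest possible p is 0.0159. Without control 4 the difference of 0.12 went to -0.01. Together the pair took 0.00253 ± 0.00139% of all counts in the controls and 0.344 ± 0.0914% in the *Supt6*-KO mice. They were 1.17 ± 0.542% of the counts of the 10 S100 genes in the controls and 43.4 ± 7.37% in the *Supt6*-KO mice. The other 8 S100 genes also took a larger share of the library, 0.440 ± 0.0285% against 0.204 ± 0.0275%, and all 10 took 0.784 ± 0.0907% against 0.207 ± 0.0288%. Each of these 3 library shares had a two-sided exact permutation p of 0.0159, and 0.0191 after Benjamini-Hochberg adjustment over 6 of the single-value tests made. The shares were not corrected for length, and after that correction 4 of the other 8 genes were called higher, *S100a3* and *S100a4* lower, and *S100a10* and *S100a11* were not called.

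Neutrophils also make S100A8 and S100A9, so the neutrophil markers of each mouse were set beside them. In whole skin, more cells of a type and more RNA per cell cannot be told apart. Of 15 neutrophil markers 14 were tested. By the TMM values 11 were higher, where 34.1% of all genes were, and 1, *Mpo*, a granule enzyme, was lower, where 36.8% were. With library totals 8 were higher and 1 lower, where 16.9% and 54.6% of all genes were. After the length correction 11 were higher and 2 lower, where 36.1% and 31.9% were. The summed level of the 15 markers was 27.1, 24.2, 26.2, 24.0 and 25.8 CPM in the controls and 68.3, 69.7, 136 and 63.2 CPM in the *Supt6*-KO mice. All 4 *Supt6*-KO mice were higher, and mouse 3 was higher than the other three. The most abundant marker of the controls was *Mmp9*, a matrix protease that other cells also make, with 12.6 CPM there and 17.4 CPM in the knockouts. *Ly6g*, the defining surface marker of mouse neutrophils, was counted 0, 1, 0, 0 and 0 times in the controls and 4, 0, 15 and 1 times in the knockouts. *Mpo* was counted 4, 10, 10, 26 and 16 times in the controls and 1, 0, 0 and 0 times in the knockouts. *Elane*, neutrophil elastase, had at most 1 count in any mouse, and *Camp*, another granule gene, was not called (log2 fold change 0.10, adjusted p = 0.86 by edgeR). *Retnlg*, a gene of mature neutrophils, rose from 0.212 to 20.6 CPM (log2 fold change 6.59, adjusted p = 2.2e-05 by edgeR), the 4 knockouts having 279, 279, 1167 and 113 counts. Its mean was the highest of the markers in the knockouts through mouse 3, at 53.4 CPM, and in mice 1, 2 and 4 it lay below *Mmp9*, at 11.7, 13.4 and 4.06 CPM.

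Per unit of summed neutrophil markers, *S100a8* plus *S100a9* came to 0.256 to 1.47 in the controls and 39.5 to 73.7 in the *Supt6*-KO mice. The groups did not overlap, and the log2 ratio went from -0.56 ± 1.00 to 5.78 ± 0.42 (two-sided exact permutation p = 0.0159, adjusted p = 0.0191). The control sum was mostly *Mmp9*, *Cxcr2* (6.00 CPM), a chemokine receptor, and *Itgam* (5.17 CPM), an integrin, which had log2 fold changes of 0.46, 1.15 and 1.06 by the TMM values and -0.25, 0.46 and 0.36, none of them called, with library totals. The median of the 14 tested markers was 4.32 by the TMM values and 3.67 with library totals. Without *Mmp9*, *Itgam*, *Fpr1* and *Fpr2*, which other cells also express, the log2 ratio went from 1.22 ± 1.02 to 6.64 ± 0.42, a difference of 5.42 in place of 6.34 (two-sided exact permutation p = 0.0159). Over all 15 markers, *Supt6*-KO mouse 3, with the most neutrophil marker RNA, had the third highest ratio of the 4, and without those 4 markers it had the lowest, a log2 ratio of 6.17 against 6.44 to 7.11. By the TMM values 6 of 8 macrophage markers were higher and 1 lower, where 34.1% and 36.8% of all genes were. The summed level of the 8 was 272 ± 28.1 CPM in the knockouts against 156 ± 57.4 CPM in the controls. After the length correction 2 of the 8 macrophage markers were higher and 1 lower, where 36.1% and 31.9% of all genes were. With library totals 2 were higher and 1 lower, where 16.9% and 54.6% of all genes were. The part of neutrophils and macrophages in the S100 values was not tested.

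**Figure D2:**
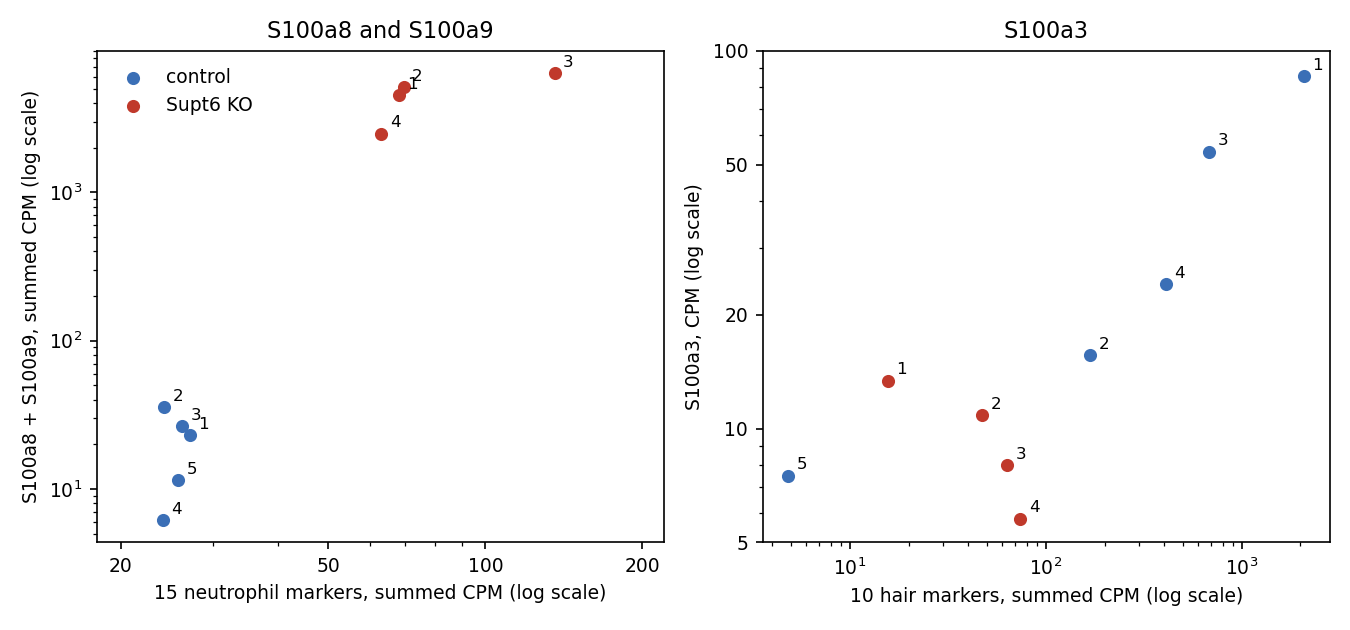
Each point is a mouse with its number, controls blue and Supt6-KO red, on log axes in CPM. On the left, S100a8 plus S100a9 are plotted against 15 summed neutrophil markers, where the red points lie well above and to the right of the blue ones; on the right, S100a3 is plotted against 10 summed hair markers, which in the red points are almost all Tchh, and where the blue points spread from 7.51 to 85.7 CPM of S100a3.

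*S100a7a*, the mouse relative of human psoriasin, an antimicrobial and chemotactic protein of inflamed epidermis, was scarce in both groups. It lies just before *S100a8* (chromosome 3, 90651925 to 90658130). Counts were 140, 15, 79, 27 and 5 in the controls and 336, 220, 336 and 539 in the *Supt6*-KO mice. The controls spread widely, with a coefficient of variation of 105%, and mouse 4 was here the highest of its group. *S100a7a* rose from 1.44 ± 1.51 CPM to 14.8 ± 3.64 CPM (log2 fold change 3.36, SE 0.68, adjusted p = 0.00091 by edgeR). Control 1 held most of the control counts, and without it the log2 fold change was 4.10 (adjusted p = 0.00018 by edgeR). The values were 2.74 after the length correction, 2.19 with the lengths behind the TPM (adjusted p = 0.013 by edgeR) and 2.71 with library totals. *S100a7l2*, a relative of *S100a7a* that was on none of the lists and is named after its values were seen, went from 0.295 ± 0.344 CPM to 0.0330 ± 0.0453 CPM without passing the test (log2 fold change -3.07, adjusted p = 0.052 by edgeR).

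*S100a14* and *S100a16*, a pair of neighbouring genes expressed mainly in epithelia, were the next most raised. *S100a14* (chromosome 3, 90526849 to 90528837) was at 396, 549, 553, 397 and 331 CPM in the controls and 1902, 2564, 2633 and 1507 CPM in the *Supt6*-KO mice. *S100a16* (chromosome 3, 90537254 to 90543151) was at 231, 286, 290.5, 224 and 174 CPM in the controls and 1197, 1337, 1500 and 1139 CPM in the *Supt6*-KO mice. For both genes every *Supt6*-KO mouse was more than 2-fold above every control, and mouse 4 was the lowest of the 4. *S100a14* rose 4.83-fold (log2 fold change 2.27, SE 0.23, adjusted p = 5.7e-06 by edgeR), and 1.86 and 1.55 on the log2 scale after the length correction and with library totals. *S100a16* rose 5.36-fold (log2 fold change 2.42, SE 0.18, adjusted p = 1e-06 by edgeR), and 1.66 and 1.72 on the log2 scale under these scalings. With the lengths behind the TPM the log2 fold changes were 1.39 for *S100a14* and 1.61 for *S100a16*.

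*S100a6*, or calcyclin, encodes a protein that binds the ubiquitin ligase adaptor Cacybp. It was at 186, 248, 234, 176 and 174 CPM in the controls and 656, 588, 766 and 773 CPM in the *Supt6*-KO mice (chromosome 3, 90612894 to 90614414). The groups were far apart, and the coefficient of variation within them was 17.2% and 12.9%. *S100a6* rose 3.42-fold (log2 fold change 1.77, SE 0.16, adjusted p = 3.1e-06 by edgeR). The rise was smaller, but still past the test, after the length correction, at 0.73 (adjusted p = 0.0026 by edgeR). It was 0.53 with the lengths behind the TPM (adjusted p = 0.015 by edgeR) and 1.09 with library totals.

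For *S100a11*, *S100a4* and *S100a10* the call depended on the scaling. *S100a11*, whose protein binds annexin A1 and is crosslinked into the cornified envelope, was at 382, 427, 437, 361 and 323 CPM in the controls and 1045, 885, 999 and 999 CPM in the *Supt6*-KO mice (chromosome 3, 93520496 to 93526288). Its groups were the tightest of the 10, and it rose 2.54-fold by the TMM values (log2 fold change 1.35, SE 0.14, adjusted p = 7.3e-06 by edgeR) and by 0.66 on the log2 scale with library totals (adjusted p = 0.0020 by edgeR). After the length correction its log2 fold change was -0.02 (adjusted p = 0.93 by edgeR). *S100a4*, a gene of fibroblasts and of motile cells whose protein binds non-muscle myosin, was at 102, 134, 118, 95.2 and 131 CPM in the controls and 259.5, 243, 239 and 192.5 CPM in the *Supt6*-KO mice. These groups did not overlap, but the log2 fold change of 1.01 (adjusted p = 6.6e-05 by edgeR) became 0.30 with library totals (adjusted p = 0.076 by edgeR) and -0.43 after the length correction (adjusted p = 0.047 by edgeR).

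*S100a10*, or p11, forms a tetramer with annexin A2 that docks plasminogen activator at the cell surface. It was at 227, 265, 227, 201 and 171 CPM in the controls and 435, 353, 326 and 496 CPM in the *Supt6*-KO mice (chromosome 3, 93555117 to 93564645). The *Supt6*-KO mice were all higher on this scale, with the largest value in mouse 4. The log2 fold change was 0.88 (SE 0.17, adjusted p = 0.00059 by edgeR), 0.22 with library totals (adjusted p = 0.35 by edgeR) and -0.23 after the length correction (adjusted p = 0.39 by edgeR).

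**Figure D3:**
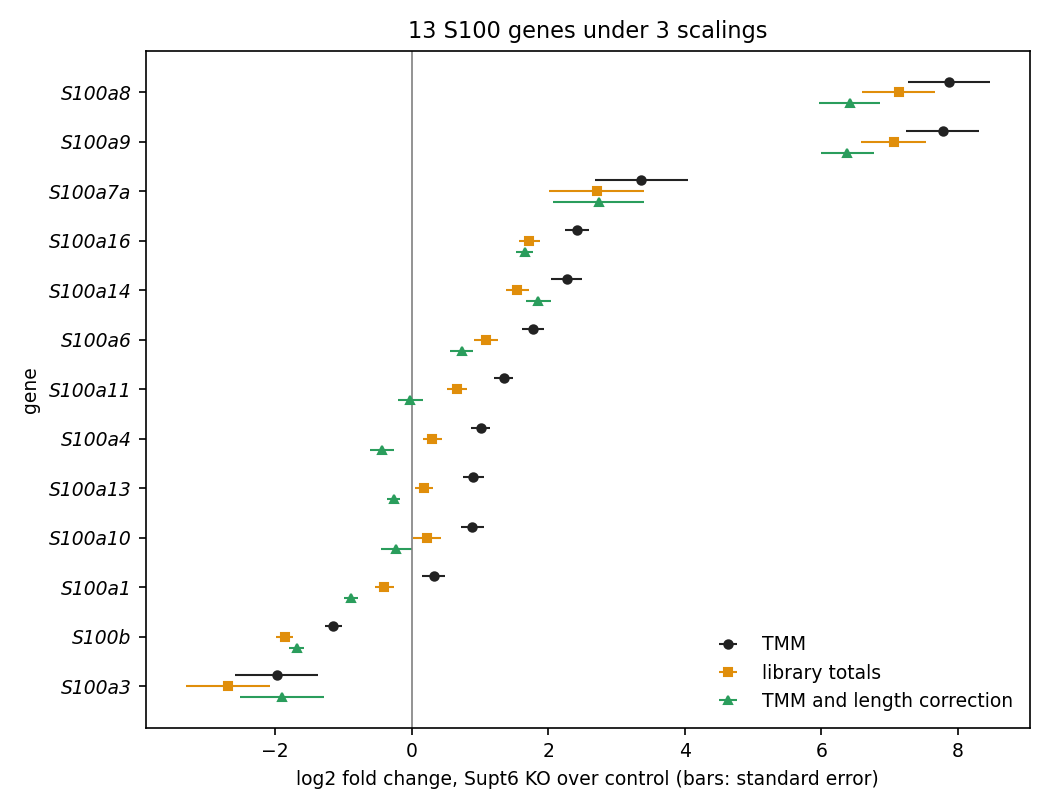
Log2 fold changes of 13 S100 genes in Supt6-KO over control skin with standard errors as bars, under TMM (black circles), library totals (orange squares) and TMM with a length correction (green triangles). S100a8 and S100a9 stand between 6.38 and 7.87 on all 3, whereas S100a4, S100a10, S100a11, S100a13 and S100a1 lie above 0 under TMM and below it after the length correction.

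*S100a3*, the hair cuticle member, was the one called lower, and its groups overlapped. Its counts were 3203, 572, 1955, 894 and 295 for the controls and 321, 226, 175 and 161 for the knockouts (chromosome 3, 90560356 to 90602706). As CPM, control 5, at 7.51, lay below *Supt6*-KO mice 1 to 3, at 13.4, 10.8 and 8.00, and above mouse 4, at 5.78. *S100a3* fell from 37.4 ± 32.2 CPM to 9.51 ± 3.32 CPM (log2 fold change -1.98, SE 0.61, adjusted p = 0.012 by edgeR), with log2 fold changes of -1.90 after the length correction, -3.26 with the lengths behind the TPM (adjusted p = 0.00085 by edgeR) and -2.69 with library totals. Tested against a 2-fold change it did not pass (adjusted p = 0.075 by edgeR). Its annotated span covers *S100a2*, which had at most 1 count in any mouse.

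Hair markers fell as well. Of 10 hair shaft and inner root sheath markers tested, 9 fell and none rose by the TMM values, where 36.8% and 34.1% of all genes did. The summed level of the 10 markers was 2084, 169, 686, 413 and 4.86 CPM in the controls and 15.6, 47.3, 63.7 and 74.4 CPM in the *Supt6*-KO mice. The most abundant in the controls, *Krt71*, a keratin of the inner root sheath, had a mean of 212 CPM there and 0.488 CPM in the knockouts. The sums of the knockouts were almost all *Tchh*, trichohyalin of the inner root sheath, at 13.8, 45.2, 61.4 and 72.2 CPM, the marker that was not called (log2 fold change -1.08, adjusted p = 0.32 by edgeR). The other 9 markers summed to 1756, 149, 603, 336 and 1.78 CPM in the controls and to 1.80, 2.06, 2.24 and 2.19 CPM in the knockouts, a sum added after seeing the data, so control 5 was close to the knockouts in them. The 5 controls had the same order in *S100a3*, in summed hair markers and in *S100a7a*, namely 1, 3, 4, 2 and 5, which was seen only after the values were known. *Padi3*, the enzyme that citrullinates S100A3 in the hair cuticle and one of these hair markers, was at 32.9, 1.83, 12.2, 6.82 and 0 CPM in the controls and did not exceed 0.790 CPM in any knockout (log2 fold change -5.27, adjusted p = 0.0074 by edgeR). The groups overlapped through control 5. The part of hair growth in the value of *S100a3* was not tested.

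Levels of different S100 genes were compared per length, as TPM, which divides the counts of a gene by its length before scaling. The authors deposited TPM for the 5 controls and for *Supt6*-KO mouse 4. For *Supt6*-KO mice 1 to 3, TPM was rebuilt from the counts and the lengths behind the deposited values, a procedure that came within -5.18% to 3.88% of the deposited TPM where both existed. The lengths came from those same deposited values, so this closeness says little about *Supt6*-KO mice 1 to 3. In control skin *S100a11* was the most abundant S100 mRNA per length, at 3254 to 3400 TPM, above every other S100 gene in every mouse. *S100a10* (1050 ± 72.8 TPM), *S100a4* (1030 ± 196 TPM), *S100a14* (922 ± 105 TPM) and *S100a6* (807 ± 59.4 TPM) followed, and each overlapped its neighbour in this order. *S100a16* (466 ± 40.6 TPM) came below them without overlap. *S100a3*, *S100a8* and *S100a9* overlapped each other at 148 ± 129, 146 ± 75.2 and 92.9 ± 45.9 TPM, and *S100a7a* was last at 5.34 ± 5.73 TPM.

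In *Supt6*-KO skin *S100a8* was first, at 13390, 11620, 14900 and 9554 TPM, and *S100a9* second, at 7647, 6758, 8736 and 6447 TPM, with no overlap between them. Next were *S100a11* at 3190 ± 1040 TPM and *S100a14* at 1580 ± 73.4 TPM. *S100a6*, *S100a16*, *S100a4* and *S100a10* lay between 749 and 1040 TPM on average and overlapped their neighbours. *S100a7a* and *S100a3* were near the end at 21.6 ± 11.3 and 13.7 ± 4.49 TPM. The order of *S100a8* and *S100a9* turned on the length used: per kilobase of the longest reference transcript, *S100a9* was first and *S100a8* second. In the controls the same lengths moved *S100a3* from place 8 to place 12 of the 13 S100 genes, below *S100a8* and *S100a9*, and put *S100a14* and *S100a6* above *S100a4*, while *S100a11* stayed first and *S100a7a* last.

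**Figure D4:**
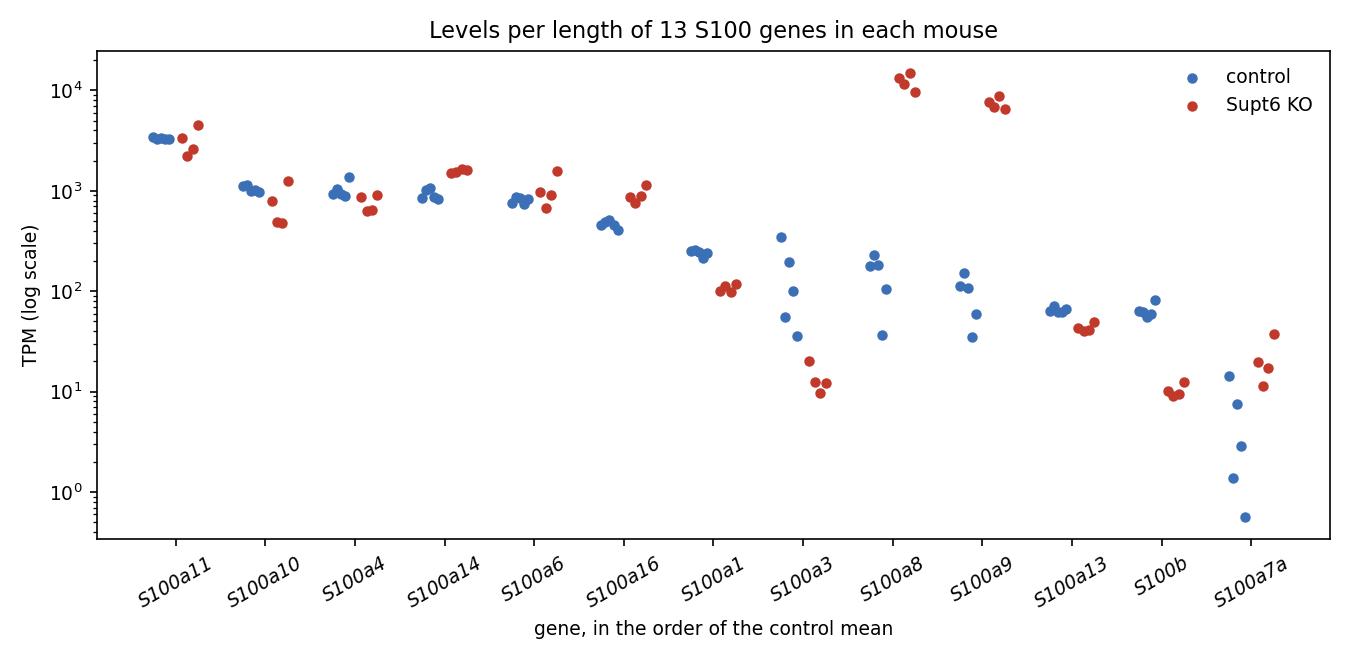
TPM of 13 S100 genes on a log axis, with a point for each control (blue) and each Supt6-KO mouse (red), in the order of the control mean. S100a11 leads in the controls at 3254 to 3400 TPM, and S100a8 leads in the Supt6-KO mice at 9554 to 14900 TPM. The values of Supt6-KO mice 1 to 3 are rebuilt TPM, and per kilobase of the longest reference transcript S100a9 leads in the Supt6-KO mice.

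Of 7 other S100 genes, 3 were tested and their calls differed. *S100a13*, a gene of the secretory route of fibroblast growth factor and interleukin 1, rose by the TMM values from 16.2 ± 2.36 to 30.3 ± 5.16 CPM (log2 fold change 0.90, adjusted p = 0.00026 by edgeR), but it was not called with library totals (0.19, adjusted p = 0.22 by edgeR) and was lower after the length correction (-0.26, adjusted p = 0.026 by edgeR). *S100b*, a marker of Schwann cells and melanocytes on chromosome 10, was counted 1977, 2187, 1860, 1781 and 2269 times in the controls and 556, 555, 589 and 582 times in the knockouts. The mice within each group were close together, and *S100b* fell from 54.0 ± 4.75 to 24.4 ± 2.88 CPM (log2 fold change -1.15, SE 0.12, adjusted p = 7.4e-06 by edgeR), with -1.69 after the length correction and -1.86 with library totals. Beside it, 4 of 4 Schwann cell markers fell (3 of 4 after the length correction), from 321 ± 41.0 to 65.5 ± 6.87 summed CPM, and 5 of 5 melanocyte markers rose, from 54.6 ± 9.04 to 145 ± 32.5 CPM, or 3 of 5 with library totals. Of all genes tested 36.8% were lower and 34.1% higher by the TMM values. After the length correction 31.9% were lower, and with library totals 16.9% were higher. The part of Schwann cells and melanocytes in the value of *S100b* was not tested. *S100a1*, known from heart and skeletal muscle, was not called (log2 fold change 0.32, adjusted p = 0.11 by edgeR) but was lower after the length correction (-0.89, adjusted p = 1.7e-05 by edgeR) and with library totals (-0.40, adjusted p = 0.020 by edgeR), while 5 of 5 skeletal muscle markers fell from 3590 ± 365 to 579 ± 78.2 summed CPM. *S100a2*, *S100a5*, *S100g* and *S100z* had at most 3 counts in any mouse, the floor used here, and were not tested.

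Of the 8 genes for receptors of S100 alarmins and their cofactors, 6 were higher by the TMM values, 1 was lower and 1 was not called. Of all genes tested 34.1% were higher and 36.8% lower on that scale, and 16.9% and 54.6% with library totals. *Cd14*, which hands ligands to Toll-like receptor 4, was counted 166, 199, 116, 147 and 152 times in the controls and 1191, 1333, 2421 and 1469 times in the knockouts. From a control mean of 4.19 CPM it rose to 69.3 ± 28.3 CPM (log2 fold change 4.05, SE 0.26, adjusted p = 4e-07 by edgeR), with the highest value in mouse 3. *Ly96*, the MD-2 subunit, had a log2 fold change of 1.77, the adaptor *Myd88* 0.86 and *Tlr4* itself 0.77, all past the test. With library totals *Cd14* and *Ly96* kept their calls, at 3.32 and 1.05 on the log2 scale, while *Myd88* (adjusted p = 0.38 by edgeR) and *Tlr4* (adjusted p = 0.70 by edgeR) did not. *Ly96*, a short gene, was at 0.55 after the length correction and lost its call, at 0.29 (adjusted p = 0.090 by edgeR), with the lengths behind the TPM. Of the basigin family, *Bsg* rose by 0.98 and *Nptn* by 0.47 on the log2 scale, but with library totals *Bsg* was at 0.29 and *Nptn* at -0.22, both short of the test. *Ager*, which encodes RAGE, was near 1 CPM in both groups and was not called (log2 fold change -0.32, adjusted p = 0.32 by edgeR), but was lower with library totals (-1.04, adjusted p = 0.0040 by edgeR). The fatty acid transporter *Cd36*, which takes up arachidonic acid carried by S100A8 and S100A9, fell by 1.35 on the log2 scale.

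The intracellular partners of the S100 proteins moved in both directions. *Cacybp*, the partner of S100A6, rose from 74.5 ± 15.4 to 267 ± 51.3 CPM (log2 fold change 1.84, SE 0.18, adjusted p = 4.8e-06 by edgeR). *Anxa1*, the partner of S100A11, had a log2 fold change of 0.61 by the TMM values and was not called after the length correction (0.20, adjusted p = 0.30 by edgeR) or with library totals (-0.06, adjusted p = 0.79 by edgeR). *Anxa2*, the partner of S100A10, was at 1344 ± 139.5 CPM and 1185 ± 361 CPM, with overlapping groups (log2 fold change -0.18, adjusted p = 0.45 by edgeR), and lower with library totals (-0.83, adjusted p = 0.011 by edgeR). *Anxa6*, *Anxa5* and *Anxa11* fell by 1.98, 0.76 and 0.74 on the log2 scale. *Ahnak*, a giant scaffold that binds the S100A10 and annexin A2 complex, stood at -0.75 by the TMM values and at 0.51 after the length correction, its transcript being one of the longest in the table. *Plat*, the plasminogen activator docked by S100A10, rose by 0.73 on the log2 scale, with overlapping groups, and was not called with library totals (adjusted p = 0.99 by edgeR). In all, 9 of the 17 receptors and partners were higher and 6 lower by the TMM values, where 34.1% and 36.8% of all genes were. With library totals 3 were higher and 8 lower, where 16.9% and 54.6% were.

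Of 5 alarmins outside the S100 family, 4 rose by the TMM values, where 34.1% of all genes were higher, and 3 with library totals, where 16.9% were and *Hmgb1* lost its call. *Hmgb2*, a chromatin protein of dividing cells, had a log2 fold change of 2.20, the cytokine *Il1a* 1.48, the nucleosome-binding *Hmgn1* 1.40 and *Hmgb1* 0.77. *Il33*, an alarmin cytokine of keratinocyte nuclei, was counted 2514, 2576, 2562, 2505 and 1836 times in the controls and 1817, 1003, 1666 and 11155 times in the knockouts. The groups overlapped and mouse 4 alone was high, so its log2 fold change was 1.22 (adjusted p = 0.053 by edgeR) with that mouse and 0.04 without it (adjusted p = 0.84 by edgeR). Without *Supt6*-KO mouse 1, 2 or 3, each time with mouse 4 kept, all 5 of these alarmins were called higher, *Il33* among them. In mouse 4 *S100a8* and *S100a9* were, by contrast, the lowest of the *Supt6*-KO group.

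Keratinocyte markers, for the cells in which Cre was driven and their progeny, did not move one way. Of 6 basal markers 0 were higher and 5 lower, and of 8 suprabasal markers 3 were higher and 2 lower by the TMM values. After the length correction 4 basal markers were lower, and 4 suprabasal markers were higher and 3 lower, whereas with library totals 5 basal markers were lower, and 3 suprabasal markers were higher and 5 lower. Of all genes tested 34.1% were higher and 36.8% lower by the TMM values, 36.1% and 31.9% after the length correction, and 16.9% and 54.6% with library totals, and several of these counts and of those that follow are near these shares. Per unit of the summed keratinocyte markers, the log2 ratio of the 10 S100 genes went from -4.32 ± 0.30 to -2.04 ± 0.22 (two-sided exact permutation p = 0.0159, adjusted p = 0.0191), without overlap. This ratio was not corrected for length. Of the markers of other cell types, 4 of 6 fibroblast, 4 of 4 endothelial, 3 of 4 T cell, 3 of 4 adipocyte and 7 of 7 cartilage markers were called lower by the TMM values. In the same order these counts were 2, 2, 4, 3 and 7 after the length correction, with 1 adipocyte marker higher, and 6, 4, 4, 3 and 7 with library totals. The summed level of the adipocyte markers was 303 ± 70.7 CPM in the controls and 316 ± 61.5 CPM in the knockouts. Cartilage markers summed to 522 ± 192 CPM in the controls and 73.7 ± 6.31 CPM in the *Supt6*-KO mice, and the most abundant was *Acan*, the cartilage proteoglycan, in the controls and *Hapln1*, its link protein, in the knockouts. The sample labels name ear and the study's text dorsal skin. The part of this difference in tissue makeup in the S100 values was not tested.

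The 10 S100 genes share a chromosome. They were picked by their S100a names, and *S100b*, *S100g* and *S100z*, which are named otherwise, lie on other chromosomes. The shared chromosome is therefore not a result apart from the choice. With *S100a1* and *S100a13* the 10 genes form 2 groups on chromosome 3 (GRCm38), between 90511034 and 93564645. The first, of 184.7 kb, runs from *S100a1* to *S100a9*, and the second, *S100a11* and *S100a10*, follows after 2.82 Mb. Within the first the log2 fold changes ran, in order along the chromosome from *S100a14*, 2.27, 2.42, -1.98, 1.01, 1.77, 3.36, 7.87 and 7.78 by the TMM values.

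The interval between the outermost S100 genes held 52 other genes of the table, mainly of the cornified envelope, and 39 of them were higher and 1 lower by the TMM values, with a median log2 fold change of 2.42. Of all genes tested 34.1% were higher, and of the 1483 genes no longer than the longest of the 10 S100 genes 70.4%. Of the 52, 31 were higher and 4 lower after the length correction, and 33 and 6 with library totals. *Rptn*, a filament matrix gene of the upper epidermis, rose from 6.57 ± 1.38 to 4458 ± 2187 CPM (log2 fold change 9.41, SE 0.43, adjusted p = 6.8e-08 by edgeR). *Sprr2k*, *Lce3a* and *Lce3b*, envelope precursors, were at 33.2, 108 and 70.6 CPM in *Supt6*-KO skin against 0.0106, 0.239 and 0.201 CPM in control skin, and *Sprr3*, at 0.00554 CPM in controls, was at 3.55 ± 5.10 CPM. *Lor*, the main envelope protein of normal skin, fell from 1156 ± 284 to 492 ± 222 CPM (log2 fold change -1.23, adjusted p = 0.0086 by edgeR). The *Sprr2* genes are near-identical copies whose reads the counting could split.

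**Figure D5:**
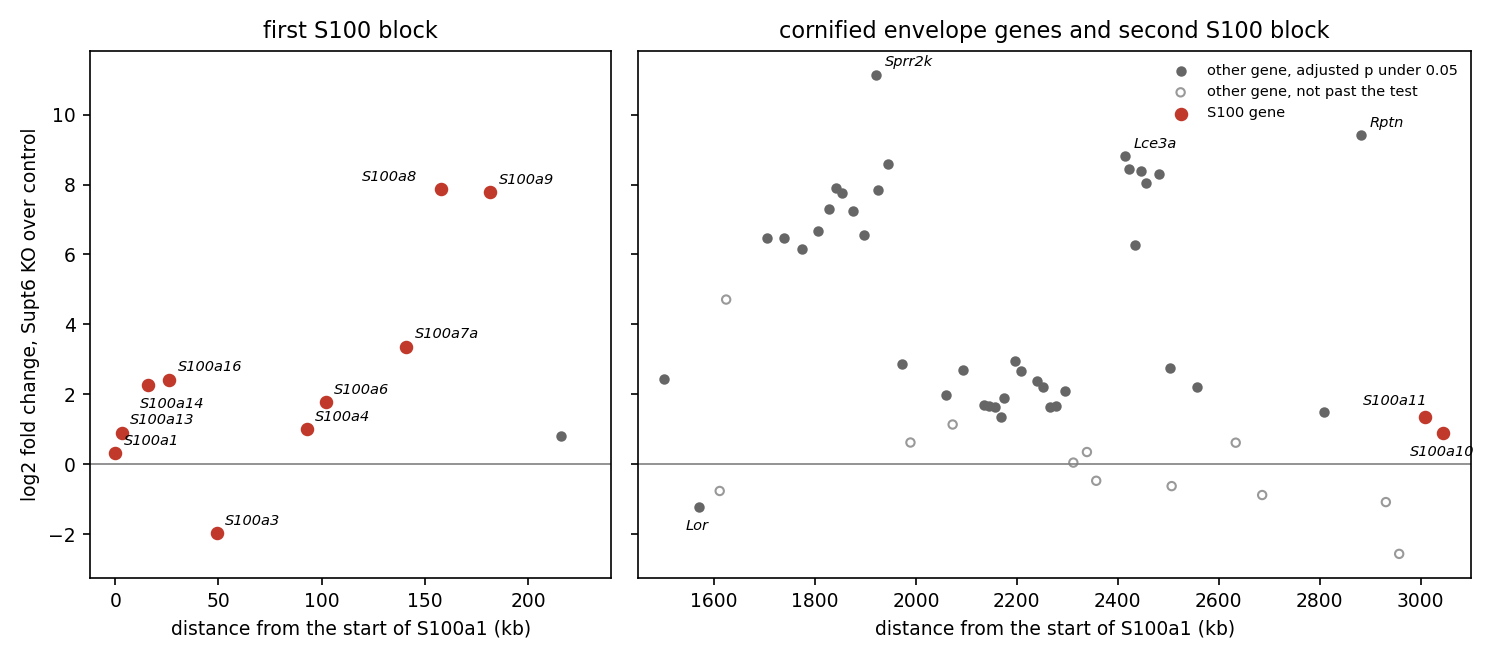
Log2 fold change by the TMM values against the distance from the start of S100a1 in kb, for S100 genes (red) and the other genes of the interval (filled grey where past the test at adjusted p under 0.05, open where not). The left panel shows the first S100 group, where S100a8 and S100a9 stand highest and S100a3 lies below 0, and the right panel the envelope genes up to Rptn and the second S100 group at the far end.

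Genes whose CPM ran most like those of *S100a8* and *S100a3* over the 9 mice were sought among 10252 genes. For *S100a8* they were *S100a9* (Pearson r 0.999), *Sprr2b* (0.997), *Ppib* (0.995), *Tyw5* (0.995) and *Snx16* (0.995). For *S100a3* they were *Krtap19-3* (0.988), *Krtap16-3* (0.967), *Krtap9-3* (0.956), *Krtap21-1* (0.952) and *Gm10229* (0.951), mostly genes of hair keratin-associated proteins. The 9 points share their libraries and the difference between the groups, so these values are descriptions.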

How the data were processed

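Per the labels' processing notes and the methods, paired reads were aligned to mm10 (Bowtie2 2.3.4.3, with HISAT also named) and counted with RSEM 1.3.1. The authors deposited estimated counts per gene for 9 mice and TPM for 6 of them, with no normalization between mice. The annotation release and the strand setting are not given in the sources used here. Of 17943 identifiers, 17917 matched RefSeq (GRCm38.p6), the source of coordinates, and 26 did not. Each mouse counted as 1 replicate.

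About 9% of the estimated counts were not whole and all were rounded. Genes with a sum under 10 were left out. edgeR 4.0.16 (R 4.3.3; quasi-likelihood test, TMM, no covariates, Benjamini-Hochberg over all genes) was the test, and its SE is the absolute log2 fold change over the square root of F. Shares and ratios per mouse were compared by exact permutation of 126 arrangements. Also run were library totals or upper-quartile factors in place of TMM, DESeq2 1.42.0, 2 other filters, scaling without the 50 most abundant genes, a test against a 2-fold change, a replicate block, each mouse left out, and a length correction (lowess offsets per mouse, span 0.3) with GENCODE lengths or, added after seeing the data, the lengths behind the TPM. Lengths behind the TPM were had for 13744 genes. Python 3.11.15, pandas 2.3.3 and scipy 1.17.1 were used.

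On simulated counts edgeR recovered 85% of changes of 1 and 100% of changes of 2 on the log2 scale and called 6 unchanged of 16412 genes, and DESeq2 recovered 85% and 100% and called 20. These simulated counts had the same dispersion for every gene and changes in only a small set of well-counted genes. They held neither the shift in scaling nor the trend with length seen here, so they do not vouch for the calls in these data. The 10 genes and all lists were chosen with earlier results of these data known. Named are these genes, the listed S100 genes, partners, alarmins and markers, up to 5 most raised and lowered genes of the interval with at least 1 CPM, and the 5 genes most alike to *S100a8* and *S100a3*; *S100a7l2* was named after its values were seen.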

Additional observations from a re-analysis of the deposited data

Results flagged for a closer look

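3 of 70 groups of mice had a sample whose gap to its nearest neighbour was large for the range of the group, and chance would give about 3.5, or 1 in 20. The summed neutrophil markers of *Supt6*-KO mouse 3 were 136 CPM, against a median of 69.0 CPM in its group. The log2 ratio of *S100a8* to *S100a9* counts was -0.745 in *Supt6*-KO mouse 4, against a group median of -0.472, so *S100a8* was the scarcer of the pair by more in that mouse. The summed Schwann cell markers of *Supt6*-KO mouse 2 were 55.3 CPM, against a median of 68.3 CPM.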

How the results depend on the processing

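*S100a6*, *S100a7a*, *S100a8*, *S100a9*, *S100a14* and *S100a16* kept their direction and their side of the threshold under every alternative run on them. With library totals *S100a4* (0.30) and *S100a10* (0.22) lost their calls, and *Nptn* (-0.22) and *Anxa1* (-0.06) turned. With the length correction *S100a4* (-0.43, or -0.67 with the lengths behind the TPM), *S100a10* (-0.23, -0.42), *S100a11* (-0.02, -0.27), *S100a13* (-0.26, -0.40) and *Ahnak* (0.51, 0.41) turned in sign. Of these, *S100a10* and *S100a11* were then not called. *S100a1*, not called by the TMM values, was called lower at -0.89, -1.14 and, with library totals, -0.40. Against a 2-fold change *S100a3* (-1.98), *S100a4* (1.01) and *S100a10* (0.88) did not pass. S100 genes called lower went from 1 to 2 with either length correction and to 0 against a 2-fold change. Genes called higher over the table went to 2771 with library totals and to 2271 against a 2-fold change, which left 2770 lower. Receptors and partners called higher went to 3 with library totals and to 3 against a 2-fold change, which left 2 lower. Of the other S100 genes 0 were higher under library totals, both length corrections and the 2-fold test, and 2, 3, 3 and 0 were lower, in that order. Genes of the interval called lower went to 6 with library totals, 4 and 3 with the length corrections, 2 with the replicate block and 0 against a 2-fold change. The cause of these changes was not tested.

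With each mouse left out, the log2 fold changes were 7.62 to 8.14 for *S100a8*, 7.56 to 8.09 for *S100a9*, 3.07 to 4.10 for *S100a7a* and -2.24 to -1.42 for *S100a3*. Genes of the interval called lower were 1 to 2, with 2 without control 2 or without control 5. Other S100 genes called higher were 1 to 2, with 2 without *Supt6*-KO mouse 4. The difference in the log2 ratio of *S100a8* to *S100a9* was -0.00884 to 0.186, lowest without control 4. Same-numbered mice deviated together weakly (r -0.011 to 0.243 in 4 pairs) and not every mouse correlated best with its own number, so the numbers were not taken as pairs. With the replicate block 9 S100 genes stayed higher and 1 lower, with log2 fold changes of 7.92 for *S100a8* and -2.03 for *S100a3*, and 5251 genes were higher and 5800 lower over the table. A library of this depth cannot separate a gene at 3 counts or fewer from none, and floors cover counting error only.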
